A study of Mus musculus with 6 samples.

Results

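Ndufa4, Ndufb6, Decr1, Stoml2 and Aldh1b1 are 5 nuclear genes whose proteins work inside mitochondria, the compartments that burn fuel to make ATP. They were chosen by name from 6 tables of read counts, and each was kept only if at least 90% of its row lay on exons of its own gene in the mouse genome build GRCm38. All 5 met that rule, out of 1740 rows that met it and 53546 rows in all. The rule matters here because most rows in these tables do not lie on the gene they are named for, so a count can be read under a gene's name only for rows in register, meaning those that met it.

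The labels describe RNA-seq of intervertebral disc, the pad between vertebrae, from C57BL/6 mice, with 3 libraries in a wild type group (wild type 1 to 3) and 3 in an intervertebral disc degeneration group (degeneration 1 to 3). The strain is common to both groups, and no label gives the means of degeneration, an allele or an agent. The age is not on the sample labels. The series text speaks of 21-day-old mice, but of their retina. No label says that libraries came from separate animals, so p-values measure the spread between these libraries alone, and that spread may be technical. In all, the libraries held 3119215 to 4009562 counts, and a count of 3, taken as the limit of detection, corresponds to 0.748 to 0.962 CPM (the usual depth-scaled unit, in which every library sums to the same total).

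Mitochondria take electrons from fuel and pass them along protein complexes of their inner membrane to oxygen. Complex I accepts electrons from NADH, complex IV hands them to oxygen, and the proton gradient built on the way drives ATP synthesis. Fatty acid oxidation and the tricarboxylic acid cycle in the matrix feed this chain, and membrane scaffold proteins and proteases keep its parts assembled. Heart muscle and the kidney tubule are among the tissues richest in mitochondria, while disc and cartilage cells rely largely on glycolysis. Ndufa4 was named as a complex I subunit and was later assigned to complex IV. Ndufb6 is an accessory subunit in the membrane arm of complex I. Decr1 is the 2,4-dienoyl-CoA reductase that prepares polyunsaturated fatty acids for oxidation. Stoml2 (also called SLP-2) is a stomatin family protein of the inner membrane that binds cardiolipin and prohibitins. Aldh1b1 is a matrix aldehyde dehydrogenase that acts on acetaldehyde and other aldehydes.

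On GRCm38 (GENCODE M21), Ndufa4 lies on the minus strand at chr6:11900292-11907497. The other 4 lie on chromosome 4: Decr1 at chr4:15917240-15945507 (minus), Ndufb6 at chr4:40270591-40279421 (minus), Stoml2 at chr4:43027690-43031710 (minus) and Aldh1b1 at chr4:45799022-45804604 (plus). Each row sums all exons of the gene, untranslated parts included, and covers 1381 bases for Ndufa4, 659 for Ndufb6, 3879 for Decr1, 3022 for Stoml2 and 2298 for Aldh1b1. For Ndufa4 99.8% of the row lay on its own exons, and for the other 4 genes 100%.

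Overlapping genes and copies bear on 3 of the rows. Of the Ndufb6 row 257 bases are shared with Smim27, on the opposite strand, and read pairs that touch both rows are left out by the counting tool's default. The Smim27 row held 24, 19 and 11 counts in wild type 1, 2 and 3 and 25, 34 and 21 counts in degeneration 1, 2 and 3. Of the Stoml2 row 502 bases lie under the antisense gene Gm26643, whose reads cannot be told apart from those of Stoml2 because the counting used no strand. Ndufa4 has 3 processed pseudogenes (Gm14450, Gm14630 and Gm45446) and Stoml2 has 1 (Gm5626) that match its transcripts at 90% identity or more over at least 100 bases. Read pairs that match both a gene and a copy can be lost from these rows. No such copy was found for Decr1 or Aldh1b1.

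Sequences upstream of the genes are shown because the 5 genes share little else by rule, and because Ndufa4 and Aldh1b1 had nearly the same profile over the libraries. They are from the RefSeq promoter table on GRCm38.p6, which holds 4 of the 5 genes, all but Decr1. Each runs 5′ to 3′ on the gene's strand, up to the base before the first annotated exon base. For Ndufa4 this is chr6:11907498-11907700, for Ndufb6 chr4:40279422-40279671 and for Aldh1b1 chr4:45798772-45799021. For Stoml2, whose own longest exon covers the window, only 27 bases around a motif are given, at chr4:43031473-43031499. Capitals mark CCGGAAG, a core bound by ETS family factors such as GABP, on either strand.
Ndufa4: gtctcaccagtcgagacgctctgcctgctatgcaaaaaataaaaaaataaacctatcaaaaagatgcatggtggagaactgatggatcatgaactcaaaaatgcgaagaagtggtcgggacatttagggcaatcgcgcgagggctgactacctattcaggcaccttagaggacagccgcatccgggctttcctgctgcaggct
Ndufb6: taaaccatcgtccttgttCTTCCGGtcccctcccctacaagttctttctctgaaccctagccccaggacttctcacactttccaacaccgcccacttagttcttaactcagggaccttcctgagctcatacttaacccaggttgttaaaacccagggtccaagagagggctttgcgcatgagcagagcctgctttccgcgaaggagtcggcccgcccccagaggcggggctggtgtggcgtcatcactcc
Stoml2: gactaatacgCCGGAAGtacgtcgggc
Aldh1b1: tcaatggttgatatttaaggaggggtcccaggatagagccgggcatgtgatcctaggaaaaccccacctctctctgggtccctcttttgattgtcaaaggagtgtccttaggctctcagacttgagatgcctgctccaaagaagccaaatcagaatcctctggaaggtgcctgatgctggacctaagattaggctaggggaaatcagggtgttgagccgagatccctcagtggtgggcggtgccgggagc

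In the table's 300-base windows (250 before and 50 after the start), CCGGAAG was found on either strand in Ndufb6 and Stoml2, and in 8.86% of all 32851 windows. The letters TCAAGGTCA, an element of estrogen-related receptors, were in none of the 4 windows and in 0.423% of all. GCGCATGC, the core of the NRF1 element, was in none of the 4 and in 2.71% of all. CCAAT, the NF-Y element, was found in Aldh1b1 alone, after the start and so not shown, and in 37.4% of all windows. The windows held 24 CpG pairs for Stoml2, 17 for Ndufb6, 14 for Ndufa4 and 7 for Aldh1b1, against a median of 7 over the table. These matches describe the letters of the windows and say nothing about binding.

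Before the genes' values, 1 property of the libraries has to be stated, for which other rows were named by position. Such a row took the name of the GRCm38 gene to which at least 80% of its exon bases belonged, given 100 bases or more, and the rows of a gene were added up into a locus. Degeneration 1 stood with the wild type libraries and not with degeneration 2 and 3, and marker genes of other tissues moved with that division. The 11 located genes of a striated and heart muscle list summed to 38709 to 41838 CPM in wild type 1 to 3 and degeneration 1, and to 55.0 and 52.3 CPM in degeneration 2 and 3. The 9 located genes of a kidney tubule list summed to 34.1 to 49.4 CPM in the first 4 libraries and to 11495 and 9346 CPM in degeneration 2 and 3. For the labelled tissue, 7 of 16 cartilage and disc genes were located, and Col2a1, Sox9 and Tbxt were not among them. The 7 summed to 22.0 to 42.6 CPM over the 6 libraries, with Krt19 at 0 counts in every library and Acan at no more than 2 counts. Chad read 2.80 to 7.69 CPM and Cnmd 1.40 to 3.53 CPM over the 6 libraries, above the limit of detection. Sox5, which other tissues also express, read 10.1 to 12.4 CPM in the first 4 libraries and 20.9 and 29.5 CPM in degeneration 2 and 3, and Col11a2 read 3.78 to 9.98 CPM and then 0.869 and 1.28 CPM. Such loci can cover a small part of a gene. Counted were 242 of 14376 exon bases for Sox5, 1197 of 6874 for Col11a2, 548 of 1680 for Chad and 362 of 6726 for the muscle gene Myh6. Sums were therefore compared between libraries and not between lists. The liver list (2 located) summed to 0.839 to 4.72 CPM in the first 4 and to 177 and 114 CPM, and the brown fat list (2 located) to no more than 7.83 CPM in any library. The red cell list (3 located) varied from 246 to 4305 CPM. The part of these markers in the results on the 5 genes was not tested. In bulk RNA, fewer cells of a type and less RNA per cell cannot be told apart.

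Ndufa4 measured 667 CPM in wild type 1, 506 in wild type 2 and 619 in wild type 3. In degeneration 1, 2 and 3 Ndufa4 measured 770, 371 and 265 CPM. Degeneration 1 was the highest of all 6 libraries and degeneration 2 and 3 the lowest, so the groups overlapped. The group means were 597 ± 82.8 for wild type and 469 ± 267 for degeneration (CPM, SD, n = 3 each). With all 6 libraries the log2 fold change of degeneration over wild type was -0.45 ± 0.53 (SE), which did not pass (adjusted p = 0.647, edgeR quasi-likelihood test, adjusted over the 14967 rows tested).

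Ndufb6, the complex I subunit, differed in that all 3 degeneration libraries lay below all 3 wild type libraries. Wild type 1, 2 and 3 had 74.3, 67.9 and 54.6 CPM of Ndufb6, and degeneration 1, 2 and 3 had 52.0, 49.0 and 33.0 CPM. The gap between wild type 3 and degeneration 1 was small: their counting intervals (95%, exact Poisson, counting error only) were 46.9 to 63.1 and 44.3 to 60.5 CPM. After TMM scaling, which sets libraries against each other by their less variable rows, the same pair stood at 60.71 and 60.68. The log2 fold change was -0.73 ± 0.30 with an unadjusted p of 0.0494 and an adjusted p of 0.287 (edgeR). Of the rows tested, 8.65% likewise had their degeneration libraries below every wild type library, which is the background to the 1 of 5 genes here. The Ndufb6 row shares 257 of its 659 bases with Smim27, where read pairs are left out. Smim27 did not fall with Ndufb6, and the part of the shared bases was not tested.

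Decr1 read 818, 649 and 546 CPM across wild type 1, 2 and 3. Across degeneration 1, 2 and 3 Decr1 read 879, 453 and 362 CPM. As for Ndufa4, degeneration 1 was the highest library and degeneration 2 and 3 the lowest, although the wild type libraries differed among themselves by up to 1.498-fold. Its log2 fold change of -0.36 ± 0.50 did not pass (adjusted p = 0.695, edgeR).

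Stoml2 showed the smallest spread within the degeneration group. Its wild type libraries read 83.3, 66.8 and 61.5 CPM and its degeneration libraries 77.1, 79.1 and 58.0 CPM, in order of number, with group means of 70.5 ± 11.4 and 71.4 ± 11.6 CPM (SD, n = 3 each). In CPM the groups overlapped almost fully, and degeneration 2 lay near wild type 1. Under TMM degeneration 2 read 69.2 and wild type 1 read 89.5. In CPM the highest degeneration library was 1.36 times the lowest for Stoml2, against 1.57 times for Ndufb6, 2.43 for Decr1, 2.91 for Ndufa4 and 3.10 for Aldh1b1. After TMM scaling it was 1.80 times for Stoml2, against 2.13 for Ndufb6, 3.29 for Decr1, 3.94 for Ndufa4 and 4.19 for Aldh1b1. The log2 fold change of Stoml2 was -0.17 ± 0.25 with an adjusted p of 0.723 (edgeR). Its sign depended on the scaling: with library totals in place of TMM it was 0.08 ± 0.23, adjusted p = 0.828. Under library totals the median of all rows tested moved by 0.29 (log2).

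Aldh1b1 was the least abundant of the 5. The wild type libraries measured 21.4, 18.5 and 22.3 CPM of Aldh1b1, and degeneration 1, 2 and 3 measured 25.8, 12.2 and 8.34 CPM. These rest on 86, 66 and 74 counts and on 82, 42 and 26 counts, so the counting interval of degeneration 3 ran from 5.44 to 12.2 CPM and that of degeneration 1 from 20.5 to 32.0 CPM. The order of libraries was close to that of Ndufa4, with degeneration 1 highest and degeneration 2 and 3 lowest. Aldh1b1 did not pass either, with a log2 fold change of -0.54 ± 0.52 (adjusted p = 0.583, edgeR).

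**Figure D1:**
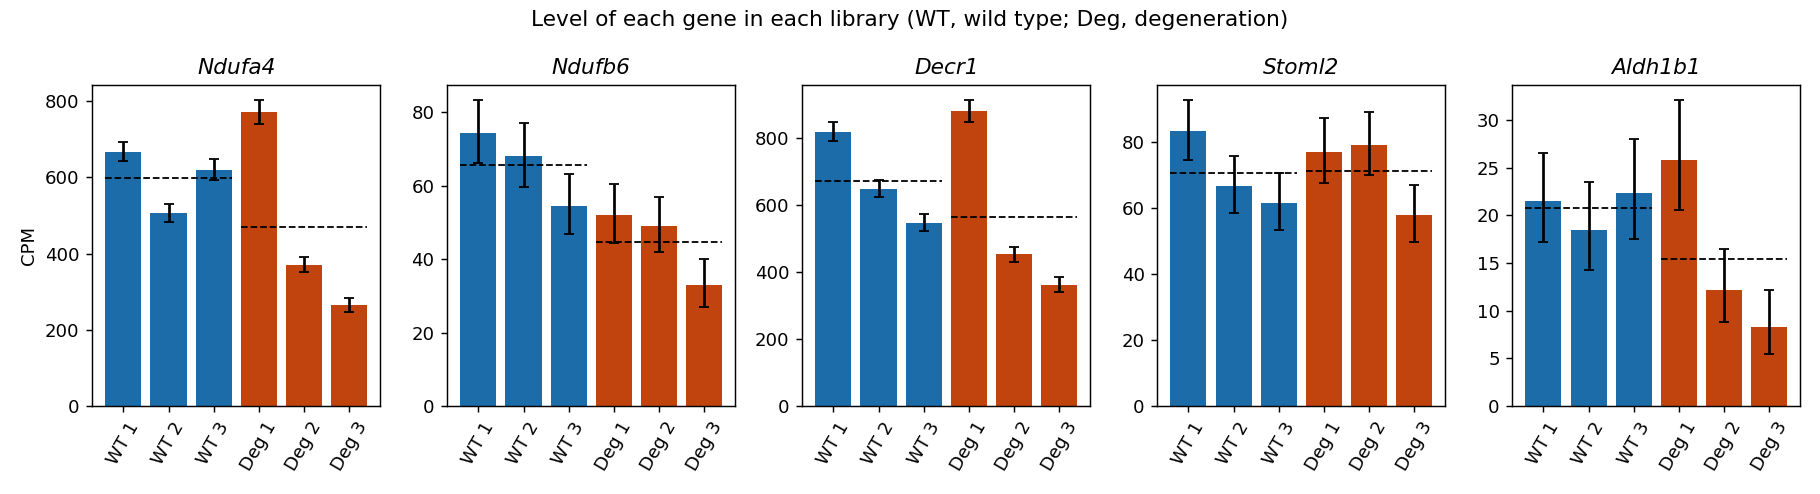
Level of each gene (CPM, linear axis from 0) in wild type 1 to 3 (WT, blue) and degeneration 1 to 3 (Deg, orange), with 95% exact Poisson counting intervals as bars and dashed lines at the group means. Ndufa4, Decr1 and Aldh1b1 peak in degeneration 1 and are lowest in degeneration 2 and 3, while Stoml2 stays between 58.0 and 83.3 CPM.

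With all 6 libraries, then, 0 of the 5 genes passed an adjusted p under 0.05, beside 0% of the 14967 rows tested. At an unadjusted p under 0.05 there were 2596 rows, Ndufb6 among them. DESeq2 called none of the 5 either (adjusted p from 0.274 to 0.824) and called 960 of 17967 rows.

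Leaving out degeneration 1 altered these calls, and no other single library did. In that fit 4 of the 5 genes fell in degeneration, beside 24.5% of all 17272 rows called lower and 50.4% called in either direction. Ndufa4 had a log2 fold change of -1.33 ± 0.18 (adjusted p = 5.7e-05, edgeR), Aldh1b1 of -1.42 ± 0.24 (0.00031), Decr1 of -1.14 ± 0.19 (0.00024) and Ndufb6 of -1.10 ± 0.21 (0.00064). Stoml2 did not pass, at -0.46 ± 0.18 with an adjusted p of 0.0538. The same fit compared libraries with muscle markers at 38709 to 40850 CPM with libraries at 55.0 and 52.3 CPM. The calls of the 4 genes held in it with library totals in place of TMM, where the log2 fold changes were -0.90 for Ndufa4, -0.67 for Ndufb6, -0.72 for Decr1 and -1.002 for Aldh1b1. That scaling called 16.2% of the 17272 rows lower, 42.9% higher and 59.1% in either direction, and the median log2 fold change of all rows was 0.45. Stoml2 was then at -0.04 ± 0.19 (adjusted p = 0.876). Whether the change of Stoml2 differs from that of the other 4 was not tested.

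**Figure D2:**
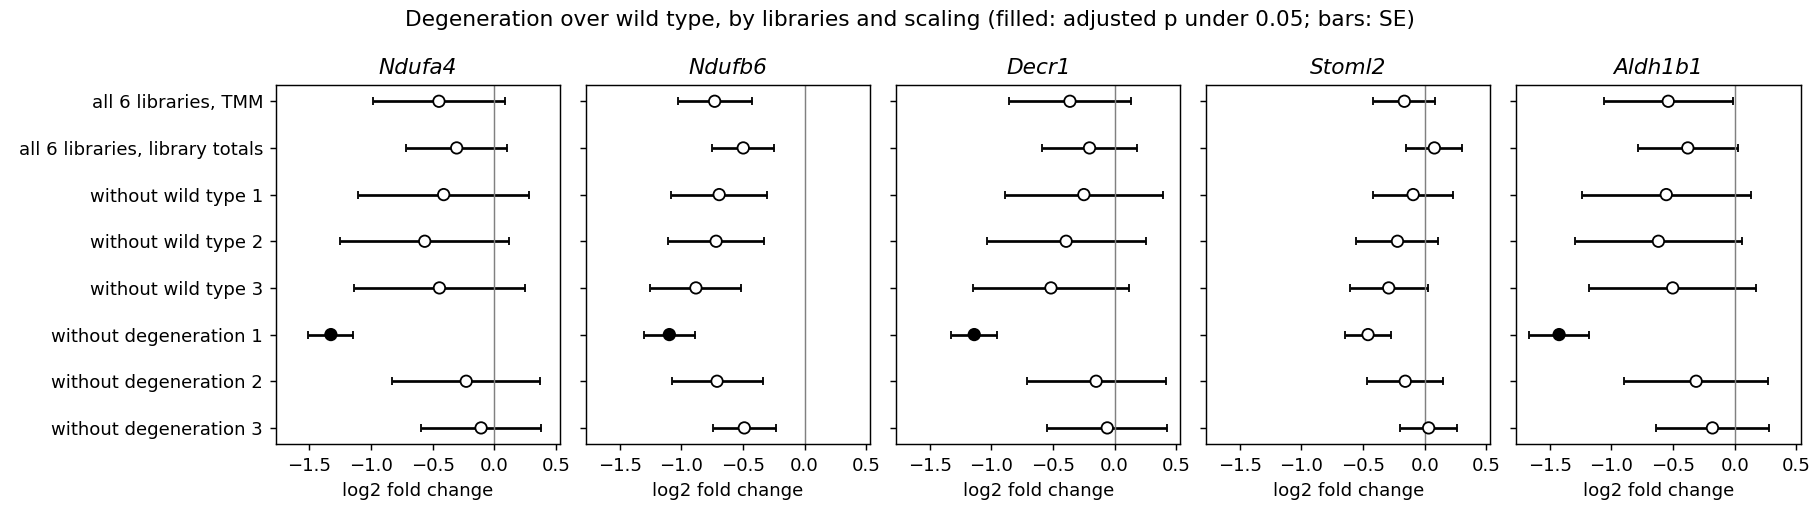
Log2 fold change of degeneration over wild type (edgeR, points) with its SE (bars) for each gene, in the fit with all 6 libraries under TMM and under library totals, and with each library left out. Filled points, at an adjusted p under 0.05, occur only without degeneration 1, for Ndufa4, Ndufb6, Decr1 and Aldh1b1.

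Ratios between the genes within a library do not depend on how the libraries are scaled. Of the 10 pairs, Ndufa4 over Aldh1b1 varied least. The wild type libraries had log2 count ratios of 4.96, 4.78 and 4.79, and degeneration 1, 2 and 3 had 4.90, 4.93 and 4.99, a range of 0.22. Both genes thus had nearly the same profile over the 6 libraries, although they lie on different chromosomes and differ widely in level. The pair was picked from the 10 after its values were seen. Aldh1b1 rests on 26 to 86 counts, and its counting interval in degeneration 3 ran from 5.44 to 12.2 CPM. Counting error alone can thus exceed the range of this ratio.

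Ratios to Stoml2 varied more, and so did ratios to Ndufb6. Stoml2 over Aldh1b1 ranged over 1.34 log2 units: the wild type libraries had 1.96, 1.86 and 1.46, degeneration 1 had 1.58, and degeneration 2 and 3 had 2.70 and 2.80. Ndufa4 over Stoml2 lay at 2.92 to 3.33 in the first 4 libraries and at 2.23 and 2.19 in degeneration 2 and 3, and Decr1 over Stoml2 at 3.15 to 3.51 and at 2.52 and 2.64. In these ratios to Stoml2 degeneration 1 again lay with wild type. Ndufb6 over Aldh1b1 ranged over 0.9998 log2 units, with degeneration 1 lowest at 1.01 and the other libraries at 1.29 to 2.01. Ndufa4 over Ndufb6 ranged over 0.995, with degeneration 1 highest at 3.89 and the other libraries at 2.90 to 3.50.

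Ndufb6 over Stoml2 was the 1 pair of 10 whose groups did not overlap. The wild type libraries had log2 ratios of -0.16, 0.02 and -0.17 and the degeneration libraries -0.57, -0.69 and -0.81, so all 3 degeneration libraries lay below wild type. The means were -0.10 ± 0.11 and -0.69 ± 0.12 (SD, n = 3 each). For the other 9 pairs the groups overlapped. An exact permutation test of 3 against 3 cannot give a two-sided p below 0.1, and the pair was singled out after its values were seen. How often pairs of other rows separate in this way was not counted. The part in this ratio of the bases that Ndufb6 shares with Smim27, and Stoml2 with Gm26643, was not tested.

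**Figure D3:**
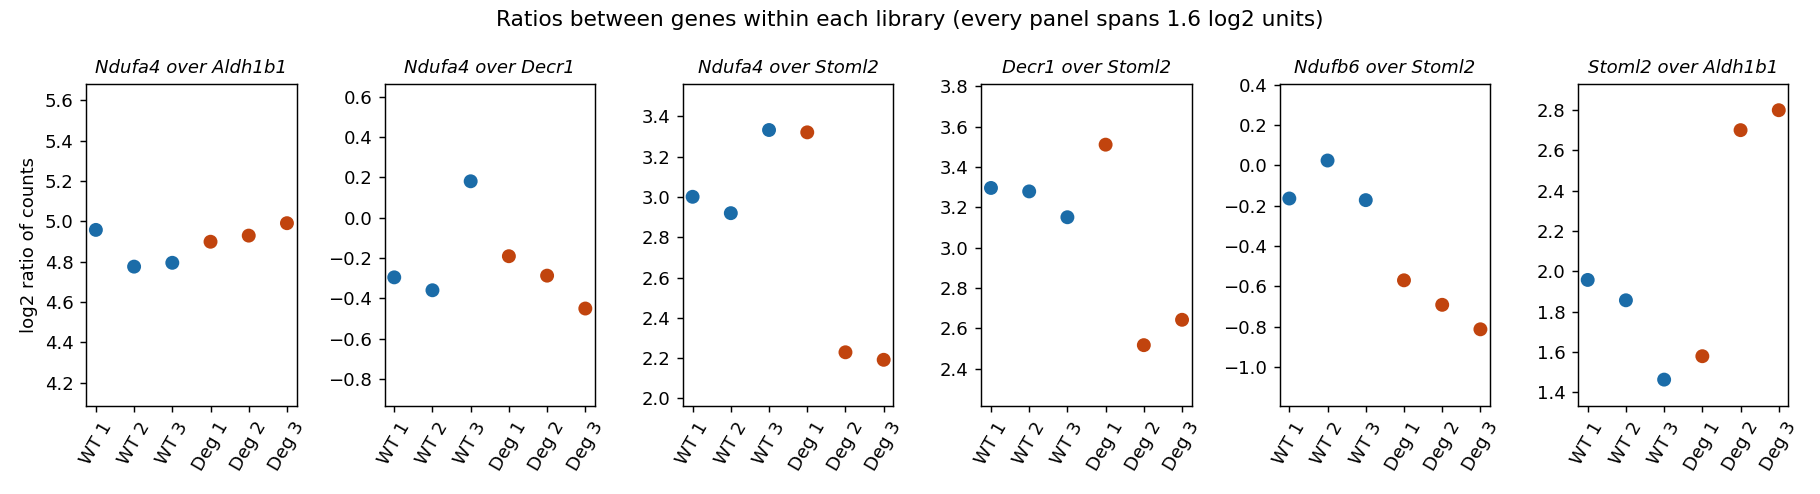
Log2 ratio of the counts of 2 genes within each library, for 6 of the 10 pairs (blue, wild type; orange, degeneration; every panel spans the same 1.6 log2 units). Ndufa4 over Aldh1b1 stays between 4.78 and 4.99, and Ndufb6 over Stoml2 is lower in all 3 degeneration libraries.

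Levels of different genes were compared per kb of row. By full row length, the order in each of the 6 libraries was Ndufa4, Decr1, Ndufb6, Stoml2 and Aldh1b1. For Ndufb6 that length includes the 257 of 659 bases shared with Smim27, where read pairs are left out. Its level per kb is thus a low estimate, and neither its place below Decr1 nor a gap between them is settled. In wild type the CPM per kb was 432 ± 59.9 for Ndufa4, 173 ± 35.4 for Decr1, 99.6 ± 15.3 for Ndufb6, 23.3 ± 3.76 for Stoml2 and 9.02 ± 0.88 for Aldh1b1 (SD, n = 3), and no 2 neighbours in this order overlapped. In degeneration Ndufa4 (192 to 558) and Decr1 (93.4 to 227) overlapped across libraries, and the other neighbours did not. Among the 1740 rows in register, Ndufa4 stood at the 99.5th to 99.8th percentile of CPM per kb in every library, and Aldh1b1 moved from the 82.1st to 84.8th in wild type and degeneration 1 to the 76.7th and 73.1st in degeneration 2 and 3. Of those rows only 481 passed the edgeR filter on low counts with all 6 libraries, so these are not percentiles among expressed genes.

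The likeness of profiles was described by Pearson's r of log2(CPM + 1) over the 6 libraries, which share each library's depth and tissue markers. It was 0.99 between Ndufa4 and Aldh1b1 and 0.93 between Ndufa4 and Decr1, and from 0.42 to 0.63 between Stoml2 and the other 4. All r values used CPM without TMM scaling, and r under TMM was not computed. Under TMM Stoml2 read 68.4 to 89.5 in wild type and 90.1 in degeneration 1. In degeneration 2 and 3 it then read 69.2 and 50.1, so the lower r of Stoml2 is given for CPM alone. Among 401 further rows in register whose mean level reached 10 CPM, the nearest to Ndufa4 were Kbtbd3 (0.99) and Dnajc25 (0.99), and to Aldh1b1 Kbtbd3 (0.99) and Rpl30 (0.99). Kbtbd3 read 48.6, 41.4 and 46.7 CPM in the wild type libraries and 52.0, 29.0 and 24.7 CPM in degeneration 1, 2 and 3, so that degeneration 1 was again highest and degeneration 3 lowest. The nearest to Decr1 were Vcp (0.98) and Tomm5 (0.97), and to Ndufb6 Rmrp (0.94) and Hrct1 (0.90). The nearest to Stoml2, Osgin2 (0.80) and Exosc3 (0.79), were less near.

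The other genes of the same pathways were read as loci named by position, since few of their rows are in register. Such a locus may cover a small part of its gene. The 9 pathway lists hold 183 genes, the 5 included, of which 59 were located and 54 tested. With all 6 libraries 0 of 54 passed (edgeR), beside 0% of 5434 loci, and 6 had an unadjusted p under 0.05, or 11.1%, beside 19.6% of all loci. Their median log2 fold change was -0.18, beside 0.00 over all loci. Without degeneration 1, 36 of 56 tested genes were called lower and 6 higher, beside 26.2% and 26.8% of all 5969 loci (53% in either direction), and with library totals in that fit 33 and 7, beside 21.1% and 35% of all loci. Of the 59 located genes, Ndufb6 and Cox4i2 had all 3 degeneration libraries below the lowest of wild type, as did 9.39% of the loci tested, and 7 genes had them above the highest, as did 11.6%.

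Like Ndufa4, the respiratory chain lists had their highest sums in degeneration 1 and their lowest in the other two degeneration libraries. Wild type 1, 2 and 3 held 2115, 1956 and 2153 CPM of the 9 located complex I subunits together, and degeneration 1, 2 and 3 held 2590, 1224 and 996 CPM. Values of this kind are given in order of replicate number. Ndufa5, a further complex I subunit in register, went with them, at 943, 906 and 978 CPM in the wild type libraries, 1048 CPM in degeneration 1, and 348 and 295 CPM in the other two. Without degeneration 1, 8 of the 9 fell, beside 26.2% of all loci, and Ndufb4 rose, beside 26.8%, with a log2 fold change of 0.49 ± 0.17 (adjusted p = 0.0295, edgeR). Its libraries read 102, 70.7 and 102 CPM (wild type) and 159, 179 and 162 CPM (degeneration), counted over 360 of 1916 exon bases. Ndufb6 and Ndufb4, both subunits of the membrane arm, thus lay on opposite sides of wild type in all 3 degeneration libraries.

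Of the 4 located complex IV genes all fell without degeneration 1, beside 26.2% of all loci. Besides Ndufa4 these include Cox6c, with 605, 606 and 613 CPM (wild type) and 772, 329 and 257 CPM (degeneration). They also include Cox4i2, an isoform of subunit 4, with 21.9, 26.3 and 26.8 CPM (wild type) and 20.5, 3.77 and 10.3 CPM (degeneration). Cox7a1, also of the brown fat list, had 3.24, 3.36 and 1.21 CPM (wild type) and 1.89, 0.290 and 0 CPM (degeneration). Its values in degeneration 2 and 3 were under the limit of detection, counted over 196 of 535 exon bases. Of complexes II, III and V, all 5 tested genes fell in that fit, against the same 26.2%, among them Atp5l and Cyc1. The partners of these subunits that the mitochondrial genome encodes could not be compared, since its 37 rows held 0 counts in every library.

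The assembly factors of complex I, summed, stayed in 1 range of CPM, which carries no TMM scaling. Together the 4 located genes held 275, 256 and 218 CPM (wild type) and 304, 262 and 218 CPM (degeneration). Under TMM the sums of degeneration 2 and 3 (factors 1.23 and 1.25) would stand lower beside the other libraries (0.864 to 0.94). Ndufaf4, in register, had 184, 173 and 120 CPM (wild type) and 178, 116 and 98.1 CPM (degeneration), and fell without degeneration 1 (log2 fold change -0.98 ± 0.18, adjusted p = 0.0012, edgeR). Ndufaf6, also in register, had 25.7, 22.9 and 24.4 CPM (wild type) and 35.3, 44.6 and 35.9 CPM (degeneration), higher in all 3 degeneration libraries, as were 11.6% of the loci tested. Its log2 fold change without degeneration 1 was 0.32 ± 0.17 (adjusted p = 0.146).

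Fuel pathways that feed the chain lay lower in degeneration 2 and 3 as well. The 7 located genes of fatty acid oxidation, Decr1 included, held 1830, 1568 and 1498 CPM together (wild type), against 2355, 882 and 771 CPM (degeneration). Slc25a20, the carnitine-acylcarnitine carrier, had 83.8, 73.0 and 74.2 CPM (wild type) and 104, 37.4 and 37.2 CPM (degeneration; counted over 233 of 4844 exon bases). Without degeneration 1, 6 of 7 fell, beside 26.2% of all loci, and Echs1, at 1.68 to 4.09 CPM over 174 of 8286 exon bases, did not pass. The 9 located genes of the tricarboxylic acid cycle held 7049, 6592 and 7369 CPM together (wild type), against 9964, 3498 and 2706 CPM (degeneration). In the fit without degeneration 1, 8 of them fell, against the same background, and Suclg2, the GTP-forming subunit of succinyl-CoA ligase, rose (log2 fold change 1.01 ± 0.20, adjusted p = 0.0015, edgeR; counted over 121 of 4623 exon bases).

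The summed relatives of Aldh1b1 were highest where Aldh1b1 was lowest. Together the 8 located aldehyde dehydrogenases, Aldh1b1 included, held 240, 209 and 241 CPM (wild type) and 261, 777 and 622 CPM (degeneration). Without degeneration 1, 4 of 6 tested rose and 2 fell, Aldh1b1 among the latter, beside 26.8% and 26.2% of all loci. Aldh2, the main mitochondrial enzyme for acetaldehyde, had 171, 150 and 176 CPM (wild type) and 198, 571 and 429 CPM (degeneration). Aldh1l1, a cytosolic folate enzyme, had 1.25, 4.19 and 8.14 CPM (wild type) and 3.78, 125 and 123 CPM (degeneration; counted over 402 of 4516 exon bases). Thus Aldh1b1 was at 12.2 and 8.34 CPM in the libraries where Aldh2, which shares its compartment and a substrate, was highest. The kidney tubule list stood at 11495 and 9346 CPM in those same libraries, and its part was not tested.

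The list of Stoml2, with stomatin and prohibitin proteins and inner membrane proteases, stayed in 1 range of CPM, which carries no TMM scaling. Its 7 located genes together held 400, 353 and 306 CPM (wild type) and 398, 401 and 310 CPM (degeneration). Under TMM the list would stand lower in degeneration 2 and 3 beside the other libraries, given their factors of 1.23 and 1.25. Without degeneration 1, 14.3% of its tested genes fell, or 1 of 7, which is below the 26.2% of all loci and no result about the list. It was Stom, a stomatin of the plasma membrane, with 35.7, 38.3 and 25.9 CPM (wild type) and 29.0, 4.35 and 5.77 CPM (degeneration; counted over 104 of 2827 exon bases).

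Of the regulators of mitochondrial biogenesis, Nrf1, a factor that binds promoters of respiratory chain genes, was in register. It had 122, 128 and 104 CPM (wild type) and 92.3, 170 and 150 CPM (degeneration) and did not pass in either fit (adjusted p = 0.92 and 0.854, edgeR). Perm1, a muscle regulator that acts with PGC-1 and estrogen-related receptors, had 314, 355 and 358 CPM (wild type) and 389, 23.5 and 27.2 CPM (degeneration). It was the 1 of 5 tested regulators called without degeneration 1 (log2 fold change -4.16 ± 0.17), a share near the 26.2% of all loci that fell. The muscle list stood at 55.0 and 52.3 CPM in the same 2 libraries, against at least 38709 CPM in the others, and its part was not tested. Tfam, which packages mitochondrial DNA, stood at 2.99 to 7.69 CPM over the 6 libraries, counted over 146 of 4438 exon bases.

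**Figure D4:**
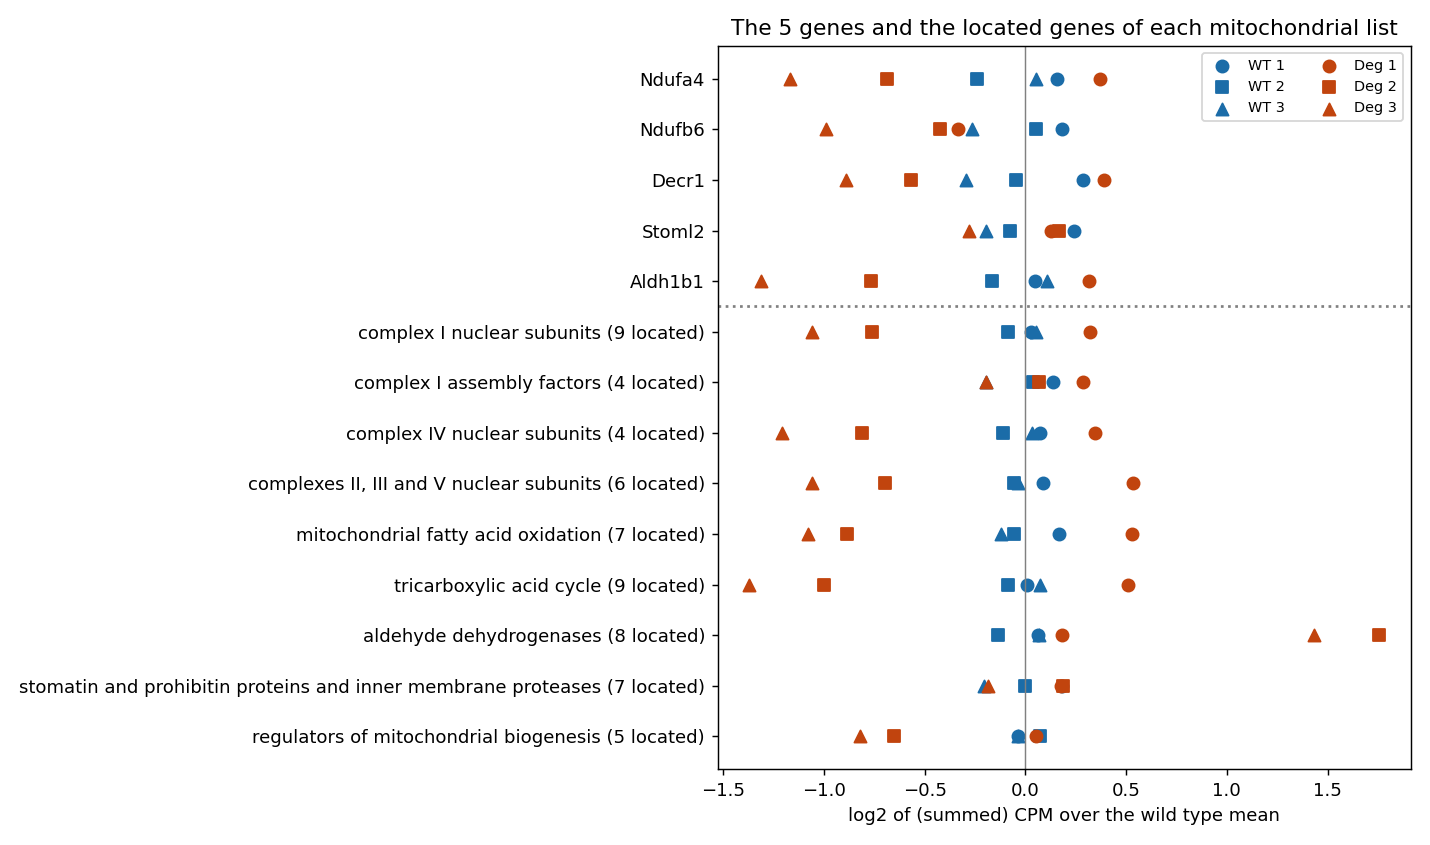
Log2 of each library's CPM over the wild type mean, for the 5 genes (above the dotted line) and for the summed CPM of the located genes of each pathway list (below; the 5 genes are included in their lists). Blue marks are wild type 1 to 3 and orange marks degeneration 1 to 3 (circle, square and triangle in that order); respiratory chain, fatty acid oxidation and tricarboxylic acid cycle lists lie lowest in degeneration 2 and 3, and the aldehyde dehydrogenase list lies highest there.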

How the data were processed

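Each deposited value is a raw count of read pairs over a gene name's exons. FeatureCounts 2.0.1 took pairs with both ends mapped, left out chimeric pairs and set no strand option, per the file headers. The aligner and build of that step are not given in the sources used here. Bowtie 0.12.2, mm8 and mm9 are named without a role, per the submitters' processing notes. A series table has 12 columns of FPKM and counts under names that no sample label uses; they were not used, so no FPKM is given.

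Row intervals were compared with GENCODE M21 exons on GRCm38 (bedtools 2.31.1, Python 3.11.15, pandas 2.3.3), on the assumption that reads were placed there. CPM used each library's total over all 53546 rows. The test was edgeR 4.0.16 (R 4.3.3): quasi-likelihood, TMM, filterByExpr, no covariate, Benjamini-Hochberg adjustment over all rows tested, threshold 0.05, on rows for the 5 genes and on loci for lists. The TMM factors were 0.864 to 0.94 in wild type and degeneration 1, and 1.23 and 1.25 in degeneration 2 and 3, so CPM stands higher there than under TMM. SEs were derived from the test statistic. Near-copies were sought with blastn 2.17.0 among GENCODE transcripts. The fit was tested on simulated data. Alternatives were DESeq2 1.42.0, limma-trend (limma 3.58.1), other scalings and filters, a replicate block, each library left out, rows in register alone and loci. Named genes were the 5, list genes in register, up to 3 markers and 2 pathway genes per list, and 2 nearest rows per gene. The genes, lists and rules were chosen with earlier results of these data known. Reads carry no molecular identifiers and may be PCR copies, so intervals and floors cover counting error only.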

Additional observations from a re-analysis of the deposited data

How the results depend on the processing

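With all 6 libraries, the log2 fold changes of Ndufa4, Ndufb6, Decr1 and Aldh1b1 were negative under every setting tried and passed in none. That of Stoml2 reversed to 0.0784 with library totals. Leaving out 1 library at a time, the log2 fold change ran from -1.33 to -0.11 for Ndufa4, from -1.10 to -0.49 for Ndufb6, from -1.14 to -0.0595 for Decr1, from -1.42 to -0.18 for Aldh1b1 and from -0.46 to 0.0321 for Stoml2, which was positive without degeneration 3 alone. The number of rows called ran from 0 to 8703 and that of pathway genes from 0 to 42, the higher values without degeneration 1. Alternatives added after seeing the data also left out degeneration 1. On rows in register alone, 297 of 524 were called (28.4% lower), with Ndufa4 at -1.13, Ndufb6 at -0.90, Decr1 at -0.94 and Aldh1b1 at -1.23. With library totals, 10208 rows and 40 pathway genes were called, with Ndufa4 at -0.90, Ndufb6 at -0.67, Decr1 at -0.72 and Aldh1b1 at -1.002. DESeq2 called 960 rows, 852 higher and 108 lower; the cause was not tested. Levels per kb of covered exon kept the order of the 5 genes, but that length also keeps the bases that Ndufb6 shares with Smim27. The labels share replicate numbers, but same-numbered libraries did not deviate together (r = -0.04, 0.09 and -0.09 across 20132 rows), so the numbers were not taken as pairs. With the replicate block 0 rows and 0 pathway genes were called, and the log2 fold changes were -0.70 for Ndufa4, -0.78 for Ndufb6, -0.55 for Decr1, -0.19 for Stoml2 and -0.77 for Aldh1b1. Depth limits Aldh1b1 most, at 26 to 86 counts per library.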
